A study of Mus musculus with 4 samples.

Results

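The 10 genes described here encode the pumps, channels, buffers and small regulators that move calcium across the sarcoplasmic or endoplasmic reticulum, and they were chosen by symbol (Atp2a1, Atp2a2, Atp2a3, Ryr1, Ryr2, Sln, Pln, Casq1, Casq2 and Cacna1s) from 55287 different symbols on 55387 rows. Each symbol had 1 row. RNA was sequenced from brown adipose tissue of 4 male mice aged 15 weeks, 1 library per mouse, namely 2 Sox4f/f mice and 2 Sox4-MKO littermates. The control mice carry floxed Sox4 alleles without Cre according to the study's methods, whereas the sample labels call them WT. Sox4-MKO mice carry the same floxed alleles together with a Cre driven by Myf5, a gene active in precursors of both brown fat and skeletal muscle, so that Sox4 is targeted in both tissues. Values are FPKM, a fragment count corrected for transcript length and for the size of the library, so levels can be compared between genes.

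SERCA pumps use ATP to carry calcium from the cytosol into the reticulum, and ryanodine receptors let it out again. In skeletal muscle the voltage sensor Cacna1s in the cell membrane opens Ryr1, calsequestrin buffers the stored calcium, and contraction ends when SERCA1 refills the store. When pumping is uncoupled from transport, or when release and reuptake run in a cycle, ATP is spent and heat is produced, a route of heat production that does not need Ucp1 and has been described for beige fat with SERCA2 and RYR2 and for muscle with SERCA1 and sarcolipin.

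Sox4, the targeted gene, reached 1.98 and 1.06 FPKM in the control mice 1 and 2 and 0.98 and 3.06 in those labelled Sox4-MKO, mice 1 and 2. The groups overlapped, and the log2 fold change was 0.20 and its standard error (SE) 0.43 (adjusted p = 0.843, limma). The value rested on single mice, since it was 0.71 without Sox4-MKO mouse 1, -0.07 without Sox4f/f mouse 2 and -0.32 without Sox4-MKO mouse 2. The mRNA level thus does not settle the labels, and directions below follow them. Brown fat markers were present in every library, with Cox8b between 1670 and 3317 FPKM, Ucp1 between 733 and 1935 FPKM and Cidea between 984 and 1849 FPKM. Vessel and macrophage markers were present too, with Cdh5 between 32.7 and 59.8 FPKM, Pecam1 between 33.6 and 41.6 FPKM and C1qa between 34.9 and 77.3 FPKM, although the labels name adipocytes as the cell type. The summed FPKM of 22 skeletal muscle markers was 381 and 1241 in Sox4f/f mice 1 and 2 and 21988 and 4507 in the libraries labelled Sox4-MKO, mice 1 and 2, which is 0.066%, 0.228%, 4.44% and 0.955% of all FPKM in each library. Sox4-MKO mouse 1 stood apart in this sum. In whole tissue, fewer cells of a type and less RNA per cell cannot be told apart. The estimated depth was 12200000 to 16600000 fragments per library.

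Of the 10 genes, 9 passed the limit for expression in the study's methods, a mean above 1 FPKM for one genotype or the other, and were tested among 12877 rows. Sln passed only through the libraries labelled Sox4-MKO, where it is high. Pln passed only through Sox4f/f (mean 1.3 against 0.68 FPKM), where it is high. At an unadjusted p under 0.05 (limma on log2(FPKM + 1)), 6 of the 9 were higher in the mice labelled Sox4-MKO (Atp2a1, Ryr1, Sln, Casq1, Casq2 and Cacna1s) and 0 were lower. Among all tested rows 7.95% were called higher and 8.28% lower by the same rule. After Benjamini-Hochberg adjustment 0.0% of all rows were under 0.05, none of the members among them, and the smallest adjusted p was 0.191. Both libraries labelled Sox4-MKO lay above both Sox4f/f libraries for 8 of the 9 genes, against 21.7% of all tested rows. The median log2 fold change of the 9 genes was 2.96, against -0.05 for all tested rows. The median was 1.89 without Sox4-MKO mouse 1, 3.74 without Sox4-MKO mouse 2, 2.41 without Sox4f/f mouse 1 and 3.45 without Sox4f/f mouse 2. Counts of members called with a mouse left out are given further below, beside those over all tested rows. An exact permutation test of one gene with 2 mice against 2 cannot go below a two-sided p of 0.333.

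**Figure D1:**
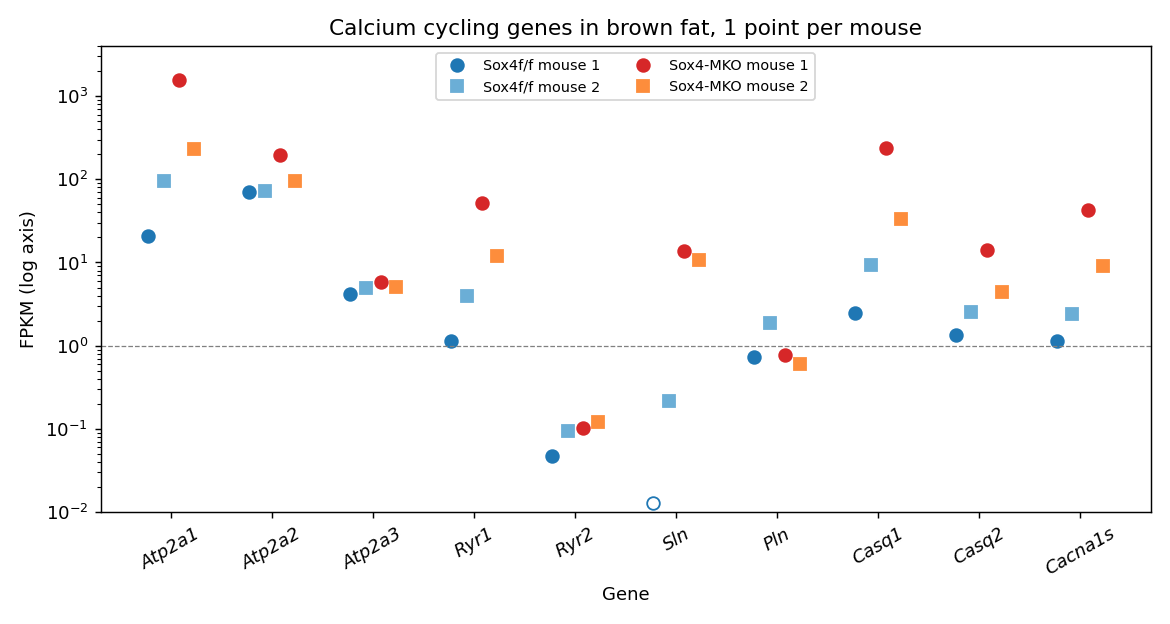
FPKM of the 10 calcium cycling genes (log axis), 1 point per mouse, with blue for Sox4f/f, red and orange for the libraries labelled Sox4-MKO, and a dashed line at 1 FPKM. The open circle marks Sln listed at 0 in Sox4f/f mouse 1. The red point lies above the others for every gene except Ryr2 and Pln, and the 4 points of Atp2a3 lie between 4.22 and 5.77 FPKM.

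Of the pumps, Atp2a1 encodes SERCA1, the isoform of fast skeletal muscle fibres, and is found on the minus strand of chromosome 7 (GRCm38, 126445858 to 126463108). It reached 20.7 and 95.5 FPKM in the control mice 1 and 2 and 1561 and 233 in those labelled Sox4-MKO, mice 1 and 2. The groups did not overlap, but the spread within a genotype was wide, 4.61-fold between the Sox4f/f mice and 6.69-fold between the others. Means were 58.1 ± 52.9 FPKM for Sox4f/f and 897 ± 939 FPKM for the other pair (SD, n = 2 each). On the log2 scale the difference was 3.72, with 0.69 to 6.76 as its 95% interval and 1.15 as its standard error (adjusted p = 0.254, limma). Leaving out Sox4-MKO mouse 1 gave 2.36, leaving out Sox4f/f mouse 1 gave 2.65, and in neither case was the unadjusted p under 0.05.

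Atp2a2 encodes SERCA2, whose splice forms serve as the housekeeping pump of most cells and as the pump of heart and slow muscle. It lies on chromosome 5 from 122453513 to 122502225. It reached 69.9 and 72.7 FPKM in the control mice and 195 and 94.4 in those labelled Sox4-MKO. The Sox4f/f mice were nearly equal, with a mean of 71.3 ± 1.99 FPKM, and both others were higher, with a mean of 145 ± 71.3 FPKM (SD, n = 2 each). The log2 fold change was 0.92 (SE 0.36, 95% interval -0.024 to 1.87, adjusted p = 0.315, limma), so its unadjusted p of 0.054 missed 0.05. Leaving out Sox4-MKO mouse 1 gave 0.40 and leaving out Sox4-MKO mouse 2 gave 1.44. Scaling to a common median (0.90), quantile normalization (0.98) and rescaling without mitochondrially encoded genes and Ucp1 (0.99) brought the unadjusted p under 0.05 (limma). Without moderation the unadjusted p was 0.219 (limma).

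Atp2a3 encodes SERCA3, found in blood cells, endothelium and some epithelia, and lies on chromosome 11 from 72961169 to 72993044. It reached 4.22 and 5.0 FPKM in the control mice and 5.77 and 5.07 in those labelled Sox4-MKO. The highest Sox4f/f value was 1.01-fold below the lowest of the others, so the groups barely separate. The log2 fold change of 0.20 had a 95% interval from -0.27 to 0.66 (adjusted p = 0.601, limma) and was 0.12 without Sox4-MKO mouse 1.

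Summed over the 3 pump genes, the level was 94.8 and 173 FPKM in Sox4f/f mice 1 and 2 and 1762 and 333 FPKM in those labelled Sox4-MKO, mice 1 and 2. Atp2a1 made up 21.9% and 55.2% of that sum in Sox4f/f and 88.6% and 70.1% in the libraries labelled Sox4-MKO. Its mean share was 38.5% ± 23.5 in Sox4f/f and 79.4% ± 13.1 in the others (SD, n = 2 each), a difference of 40.8 percentage points that ranged from 24.2 to 57.5 with each mouse left out. This difference was not tested. Atp2a2 was the most abundant pump transcript in Sox4f/f mouse 1 alone, at 73.7%, against 42.0% in Sox4f/f mouse 2, 11.1% in Sox4-MKO mouse 1 and 28.4% in Sox4-MKO mouse 2. The order of the isoforms thus already differed between the 2 control mice.

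**Figure D2:**
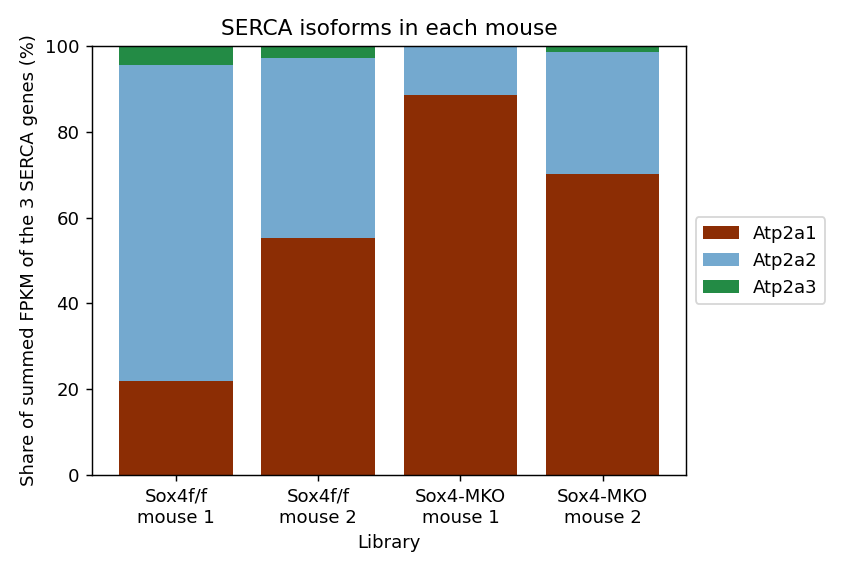
Share of each SERCA gene in the summed FPKM of Atp2a1, Atp2a2 and Atp2a3 in each library, in percent, as bars stacked to 100. The Atp2a1 part is smallest in Sox4f/f mouse 1 (21.9%) and largest in Sox4-MKO mouse 1 (88.6%), and Atp2a3 stays at or below 4.45%.

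Of the release channels, Ryr1 encodes the ryanodine receptor of skeletal muscle and lies on chromosome 7 from 29003344 to 29125179. It reached 1.15 and 3.91 FPKM in the control mice and 51.7 and 12.0 in those labelled Sox4-MKO, without overlap. The log2 fold change was 3.01 (SE 0.78, adjusted p = 0.228, limma), or 2.00 without Sox4-MKO mouse 1, and its unadjusted p was above 0.05 without Sox4f/f mouse 1 (2.41). Ryr2, the ryanodine receptor of heart and brain and the one named for calcium cycling in beige fat, did not pass the FPKM limit. It reached 0.047 and 0.094 FPKM in the control mice and 0.10 and 0.12 in those labelled Sox4-MKO, which amounts to about 11, 19, 23 and 34 fragments along a transcript of 16814 nt. Ryr2 was thus the lowest of the 10 genes in Sox4f/f mouse 2 and in both libraries labelled Sox4-MKO, and no difference was tested at this depth.

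Cacna1s encodes the voltage sensor of the skeletal muscle calcium channel and lies on chromosome 1 from 136052750 to 136119822. It reached 1.14 and 2.39 FPKM in the control mice and 42.7 and 9.01 in those labelled Sox4-MKO. The lowest of the latter was 3.78-fold above the highest Sox4f/f value. The log2 fold change of 2.96 (SE 0.75, adjusted p = 0.223, limma) was 1.89 without Sox4-MKO mouse 1, and its unadjusted p was above 0.05 without either Sox4f/f mouse.

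Of the buffers, Casq1 encodes the calsequestrin of fast muscle and lies on chromosome 1 from 172209894 to 172219868. It reached 2.45 and 9.31 FPKM in the control mice and 236 and 33.7 in those labelled Sox4-MKO, the widest range of the 9 genes above 0 in every library, 96.4-fold from lowest to highest. Its log2 fold change of 3.93 (SE 1.06, adjusted p = 0.231, limma) was 2.54 without Sox4-MKO mouse 1, and its unadjusted p was above 0.05 without Sox4f/f mouse 1 (3.14). Casq2, the calsequestrin of heart and slow muscle, lies on chromosome 3 from 102086415 to 102146514 and had 1.36 and 2.54 FPKM against 14.3 and 4.47 FPKM. Its log2 fold change of 1.66 (SE 0.55, adjusted p = 0.267, limma) was 0.92 without Sox4-MKO mouse 1, and the unadjusted p stayed under 0.05 only when Sox4-MKO mouse 2 was the mouse left out.

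The micropeptides that restrain SERCA differed from each other. Sln encodes sarcolipin, which uncouples ATP use by SERCA from calcium transport, and lies on chromosome 9 from 53850164 to 53854560. It was listed at 0 in Sox4f/f mouse 1 and had 0.22 FPKM in Sox4f/f mouse 2, about 4 fragments, whereas the libraries labelled Sox4-MKO had 13.7 and 10.6 FPKM, about 236 and 232 fragments. Sln was the only member with a narrow spread among the libraries labelled Sox4-MKO and a wide gap to Sox4f/f, since the lower of those libraries was 48.4-fold above Sox4f/f mouse 2. The log2 fold change of 3.56 had an SE of 0.23 and an unadjusted p of 3.8e-05 (adjusted p = 0.191, limma). Both Sox4f/f values lie below the pseudocount of 1, which compresses their spread and keeps this SE small. With a pseudocount of 0.01 the log2 fold change was 7.98 and the unadjusted p 0.0040 (limma). Since Sln passed the FPKM limit only through the libraries labelled Sox4-MKO, these p-values lend it no support. With each mouse left out the log2 fold change was 3.39 to 3.74.

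Pln encodes phospholamban, the regulator of SERCA2 in heart, slow muscle and smooth muscle, and lies on chromosome 10 from 53337667 to 53345987. It reached 0.73 and 1.88 FPKM in the control mice and 0.77 and 0.60 in those labelled Sox4-MKO. The groups overlapped, with Sox4f/f mouse 2 above the other 3 libraries, and the log2 fold change was -0.41 with a 95% interval from -1.3 to 0.48 (adjusted p = 0.574, limma). Without Sox4f/f mouse 2 Pln no longer passed the FPKM limit.

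**Figure D3:**
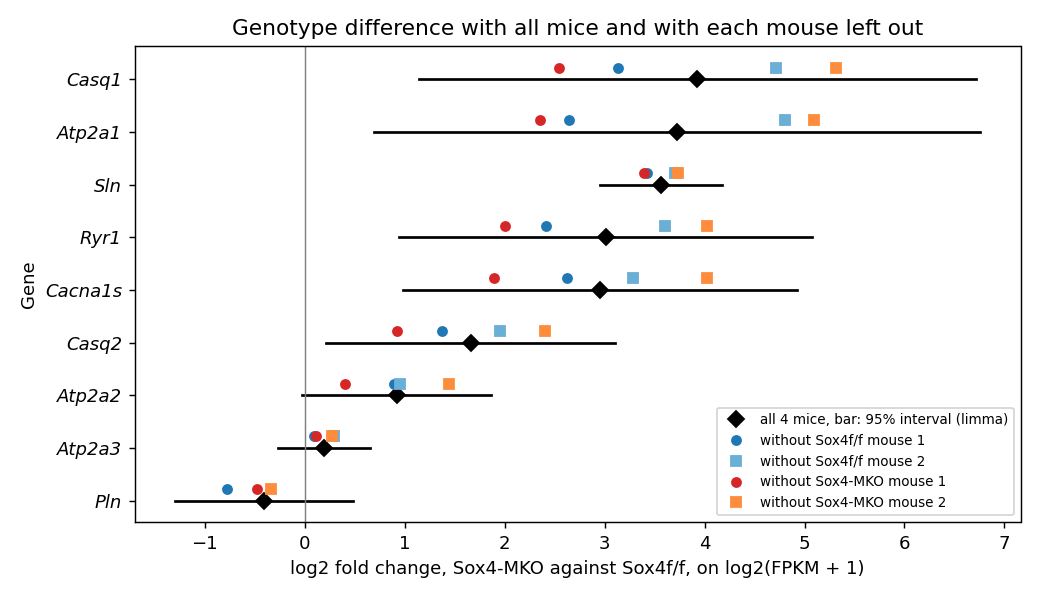
Log2 fold change between the libraries labelled Sox4-MKO and Sox4f/f on the log2(FPKM + 1) scale for the 9 tested genes, as diamonds with 95% intervals from limma, and with each mouse left out as coloured points. Leaving out Sox4-MKO mouse 1 (red) gives the lowest value for the 7 genes from Casq1 down to Atp2a2, Sln among them, whereas the points of Sln lie between 3.39 and 3.74.

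In Sox4f/f the order of mean FPKM was Atp2a2 (71.3 ± 1.99), Atp2a1 (58.1 ± 52.9), Casq1 (5.88 ± 4.86), Atp2a3 (4.61 ± 0.55), Ryr1 (2.53 ± 1.95), Casq2 (1.95 ± 0.83), Cacna1s (1.77 ± 0.88) and Pln (1.3 ± 0.82), with Sln and Ryr2 at or below 0.22 FPKM in each library (SD, n = 2). Neighbours in this order differed by less than the sum of their SDs, except for the step from Pln down to Sln and Ryr2. In the libraries labelled Sox4-MKO the order of mean FPKM was Atp2a1 (897 ± 939), Atp2a2 (145 ± 71.3), Casq1 (135 ± 143), Ryr1 (31.8 ± 28.1), Cacna1s (25.9 ± 23.8), Sln (12.1 ± 2.22), Casq2 (9.38 ± 6.94), Atp2a3 (5.42 ± 0.49), Pln (0.68 ± 0.12) and Ryr2 (0.11 ± 0.012). Neighbours from Atp2a1 to Atp2a3 lay within the sum of their SDs, and the steps down to Pln and to Ryr2 exceeded it.

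The skeletal muscle markers moved with these genes. At an unadjusted p under 0.05 (limma), 20 of the 22 markers were higher in the mice labelled Sox4-MKO, none was at 0 in any library, and the median log2 fold change was 3.81, or 2.61 with 11 called without Sox4-MKO mouse 1 and 2.93 with 9 called without Sox4f/f mouse 1. The most abundant were Acta1, at 59.9 and 226 FPKM in the control mice against 4512 and 898 FPKM, Tnnt3, at 30.3 and 119 against 1961 and 375 FPKM, and Mylpf, at 24.6 and 67.6 against 1994 and 383 FPKM. The libraries kept the same order in the marker sum as in Atp2a1, Ryr1, Casq1, Casq2 and Cacna1s, with Sox4f/f mouse 1 lowest and Sox4-MKO mouse 1 highest. Atp2a2 and Atp2a3 had this order too, so it is not particular to the muscle-type genes.

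Set against the marker sum of the same library, Atp2a1 came to 5.43% and 7.70% of it in Sox4f/f mice 1 and 2 and to 7.10% and 5.18% in Sox4-MKO mice 1 and 2. This ratio varied 1.49-fold over the 4 libraries and overlapped between the genotypes, while the FPKM of Atp2a1 varied 75.3-fold. The ratio of Ryr1 was 0.30%, 0.32%, 0.24% and 0.27% in the same order, a 1.34-fold range beside 45.1-fold in FPKM. For Casq1 it was 0.64%, 0.75%, 1.07% and 0.75%, a 1.67-fold range, and for Cacna1s 0.30%, 0.19%, 0.19% and 0.20%, a 1.56-fold range beside 37.4-fold in FPKM. These 4 genes were close to a fixed proportion of the muscle markers in every mouse. On the log2 scale the mean ratio differed between the genotypes by -0.09 for Atp2a1, -0.30 for Ryr1, 0.37 for Casq1 and -0.28 for Cacna1s, which were not tested.

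The other members did not keep a fixed proportion. Atp2a2 equalled 18.3% and 5.86% of the marker sum in the control mice and 0.89% and 2.1% in those labelled Sox4-MKO, a 20.6-fold range, beside 2.79-fold in FPKM. Atp2a3, Ryr2 and Pln ranged 42.2-fold, 26.3-fold and 54.5-fold in the ratio and 1.37-fold, 2.55-fold and 3.15-fold in FPKM. Casq2 lay between, with a 5.49-fold range in the ratio and 10.5-fold in FPKM. Sln equalled 0.018% of the marker sum in Sox4f/f mouse 2, 0.062% in Sox4-MKO mouse 1 and 0.23% in Sox4-MKO mouse 2, so it was highest relative to the markers in the library of that genotype with fewer of them.

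**Figure D4:**
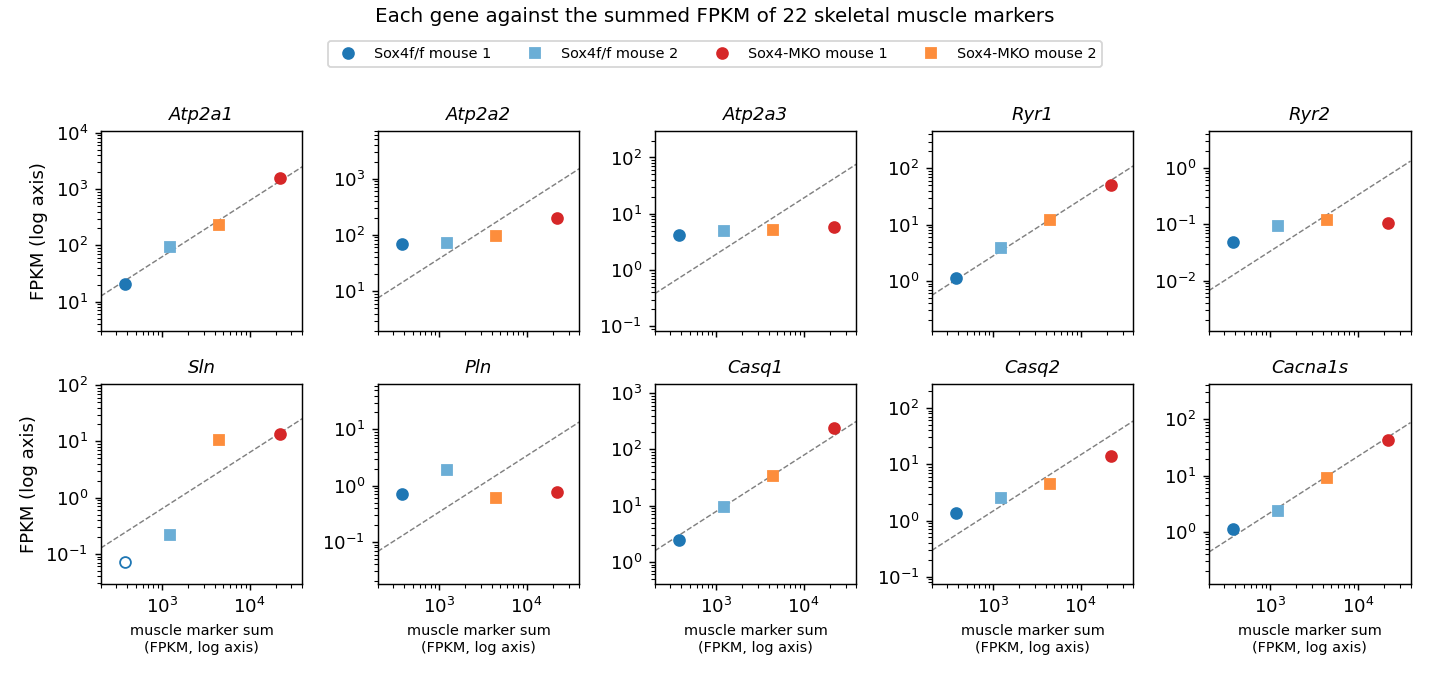
FPKM of each of the 10 genes against the summed FPKM of 22 skeletal muscle markers in the same library (both log axes), 1 point per mouse, with a dashed line of constant ratio through the centre of the points above 0. Atp2a1, Ryr1, Casq1 and Cacna1s follow the line within a 1.67-fold range, Atp2a3 is nearly level (1.37-fold range), and the open circle marks Sln listed at 0 in Sox4f/f mouse 1.

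The 5 tested genes nearest to Atp2a1 in pattern, by the root mean square difference of log2(FPKM + 1) over the 4 libraries after centring, were Pgam2 (0.059), Ckm (0.062), Tcap (0.15), Tnnt3 (0.15) and Tnnc2 (0.19), of which all but Pgam2 belong to the muscle marker list. Ckm, the muscle creatine kinase, had 26.4, 116, 1755 and 274 FPKM in Sox4f/f mice 1 and 2 and Sox4-MKO mice 1 and 2. The 5 nearest to Atp2a2 were Gm32569 (0.025), Colq (0.028), Nqo1 (0.030), Fads3 (0.040) and Togaram2 (0.049). Only Fads3 among them was above 5 FPKM in every library, at 18.4, 18.3, 50.7 and 25.7 FPKM, and the other 4 stayed at or below 4.25 FPKM. Likeness over 4 libraries is a description only.

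Promoters of muscle-type members that hold a motif named below are shown, because these genes differed together between the libraries. RefSeq windows of 300 bases, 250 before the start and 50 from it on (GRCm38.p6), were found for 8 of the 10 genes, with no entry for Atp2a2 and Sln. They were searched on both strands for CAGCTG, the E-box form favoured by myogenic factors, for TAAAAATA, a core bound by MEF2 factors, and for ACAAAG, a core bound by SOX factors. CAGCTG, which reads the same on both strands, was in 4 of the 8 windows (Atp2a1, Casq1, Cacna1s and Pln) and in 16.3% of 32851 such windows. TAAAAATA was in the window of Casq2 alone and in 2.72% of all windows, and ACAAAG was in that of Pln alone and in 18.7% of all windows. The windows of Ryr1, Atp2a3 and Ryr2 held none of these motifs. That of Ryr1, also a muscle-type member, is therefore not printed. CAGCTG begins 55 bases before the start in Atp2a1, 195 in Casq1 and 123 in Cacna1s, and the reverse complement of TAAAAATA begins 68 bases before the start in Casq2. The bases before the start of these 4 genes follow, 5′ to 3′ on the strand of the gene, with the motif in capitals. In Atp2a1 and Cacna1s the last 35 and 61 bases before the RefSeq start lie within the GENCODE gene and were left out.
Atp2a1 promoter, chr7:126463109-126463323, minus strand: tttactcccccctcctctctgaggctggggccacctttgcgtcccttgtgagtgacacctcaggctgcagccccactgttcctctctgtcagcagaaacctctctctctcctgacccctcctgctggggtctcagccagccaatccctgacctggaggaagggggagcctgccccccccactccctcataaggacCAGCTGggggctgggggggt
Casq1 promoter, chr1:172219896-172220145, minus strand: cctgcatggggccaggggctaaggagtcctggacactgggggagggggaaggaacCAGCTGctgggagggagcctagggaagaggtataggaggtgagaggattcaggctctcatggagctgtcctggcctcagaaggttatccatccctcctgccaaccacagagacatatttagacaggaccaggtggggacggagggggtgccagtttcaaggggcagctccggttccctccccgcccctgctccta
Cacna1s promoter, chr1:136052561-136052749, plus strand: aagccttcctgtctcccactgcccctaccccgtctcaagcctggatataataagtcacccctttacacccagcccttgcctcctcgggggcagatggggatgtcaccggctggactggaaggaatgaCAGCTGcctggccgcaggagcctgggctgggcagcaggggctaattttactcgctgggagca
Casq2 promoter, chr3:102086165-102086414, plus strand: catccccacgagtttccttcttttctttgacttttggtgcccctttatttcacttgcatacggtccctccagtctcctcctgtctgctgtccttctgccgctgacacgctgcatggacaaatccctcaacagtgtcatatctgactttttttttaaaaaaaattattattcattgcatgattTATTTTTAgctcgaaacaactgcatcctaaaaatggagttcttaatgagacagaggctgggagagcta
In Pln, whose genotypes overlapped, CAGCTG begins 8 bases after the start. A match of letters is a description of the window only.

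The partners of the junction between cell membrane and reticulum in muscle followed the members. Among them Cacng1 (mean 0.45 against 6.25 FPKM) and Strit1 (0 against 4.08 FPKM) passed the FPKM limit only through the libraries labelled Sox4-MKO. They could thus only be found higher. Of 15 genes in this list 14 were tested, 10 were higher and 1 was lower in the mice labelled Sox4-MKO by the same unadjusted rule (limma), and the median log2 fold change was 2.01, or 1.21 with 11 higher without Sox4-MKO mouse 1. The count of higher genes was 3 without Sox4f/f mouse 1 and 6 without Sox4f/f mouse 2. Stac3, which links Cacna1s to Ryr1, had 0.52 and 1.87 FPKM in the control mice against 62.4 and 21.1 FPKM (log2 fold change 4.17, SE 0.60, or 3.40 without Sox4-MKO mouse 1). Trdn, which anchors calsequestrin to the release channel, had 4.63 and 3.20 against 91.2 and 29.4 FPKM (3.44, SE 0.56, or 2.64 without Sox4-MKO mouse 1). Hrc, a calcium-binding protein of the store, had 0.57 and 2.70 against 47.9 and 11.4 FPKM, and Tmem38a, a counter-ion channel, 5.08 and 11.8 against 181 and 41.1 FPKM. Their log2 fold changes were 3.36 and 3.31, or 2.37 and 2.25 without Sox4-MKO mouse 1, and both lost their unadjusted p under 0.05 without Sox4f/f mouse 1. Srl had 15.9 and 14.6 against 141 and 25.3 FPKM, with an unadjusted p of 0.069 (limma). Its log2 fold change was 1.91, or 0.70 without Sox4-MKO mouse 1. The gene that was lower, S100a1, was the most abundant of the list, at 390 and 443 FPKM in the control mice against 301 and 317 FPKM (-0.43, SE 0.12), and its unadjusted p was above 0.05 without Sox4f/f mouse 1, Sox4f/f mouse 2 or Sox4-MKO mouse 1, after quantile normalization (0.083), after rescaling without mitochondrially encoded genes and Ucp1 (0.060) and in limma without moderation (0.051).

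Of 16 genes of the calcium store shared by most cells 15 were tested, 0 were higher and 2 lower at an unadjusted p under 0.05 (limma), beside 7.95% and 8.28% of all tested rows, and the median log2 fold change was 0.05. With so few genes this count is read as no result about the list. It became 1 higher and 2 lower without Sox4-MKO mouse 1 and 2 higher and 2 lower without Sox4-MKO mouse 2. The 2 lower genes were receptors for IP3, the second messenger that opens the store in cells other than muscle fibres. Itpr2 reached 29.4 and 33.8 FPKM in the control mice and 17.0 and 17.3 in those labelled Sox4-MKO, a log2 fold change of -0.84 with a standard error of 0.13 (adjusted p = 0.196). Its values within a genotype were close, and it kept an unadjusted p under 0.05 with each mouse left out, from -0.94 to -0.74. Itpr1 had 35.9 and 40.9 against 19.4 and 24.8 FPKM (-0.78, SE 0.17), with an unadjusted p above 0.05 without Sox4f/f mouse 2. Of the 10 brown adipocyte markers, 6 were lower in the same libraries at an unadjusted p under 0.05 (limma). The list median was -0.86, or -0.72 without Sox4-MKO mouse 1 and -0.85 without Sox4f/f mouse 1. Summed FPKM was 5081 to 6246 against 9060 to 9248 in Sox4f/f. Those not called were Dio2 (-1.30), Elovl3 (-0.23), Plin1 (-0.15) and Adipoq (-0.01). The part of the lower markers in the IP3 receptor values was not tested. The 3 most abundant genes of the store list were above an unadjusted p of 0.05 with all 4 mice (limma), but Calr was higher by 0.42 on the log2 scale without Sox4-MKO mouse 1. Fkbp1a had 133 and 136 against 130 and 111 FPKM, Calr, the calcium buffer of the endoplasmic reticulum, 113 and 109 against 101 and 149 FPKM, and Calm2 97.2 and 93.1 against 121 and 105 FPKM.

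Of 7 genes for calcium export across the cell membrane 4 were tested, and the median log2 fold change was 0.60. Among them Slc8a1 (mean 0.42 against 1.01 FPKM) and Slc8a3 (0.20 against 3.07 FPKM) passed the FPKM limit only through the libraries labelled Sox4-MKO. They could thus only raise this median. Atp2b4, a plasma membrane calcium pump, was the one gene at an unadjusted p under 0.05 (limma), at 6.62 and 8.23 FPKM in the control mice against 13.4 and 12.0 FPKM (0.70, SE 0.17), but not without Sox4f/f mouse 1 or Sox4-MKO mouse 1. Atp2b1 overlapped, at 12.4 and 9.16 against 17.3 and 11.7 FPKM, and the sodium-calcium exchanger Slc8a3 had 0.12 and 0.27 against 5.26 and 0.88 FPKM. All 12 genes of mitochondrial calcium uptake and release were tested, none was called in either direction, and the median was -0.02. Their most abundant members overlapped between genotypes: Vdac1 had 169 and 178 against 300 and 170 FPKM, Smdt1 162 and 158 against 174 and 126 FPKM, and Vdac2 170 and 156 against 162 and 119 FPKM. Without Sox4-MKO mouse 1, 3 of these 12 were lower, and without Sox4-MKO mouse 2, 2 were higher, so these calls depend on single mice.

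**Figure D5:**
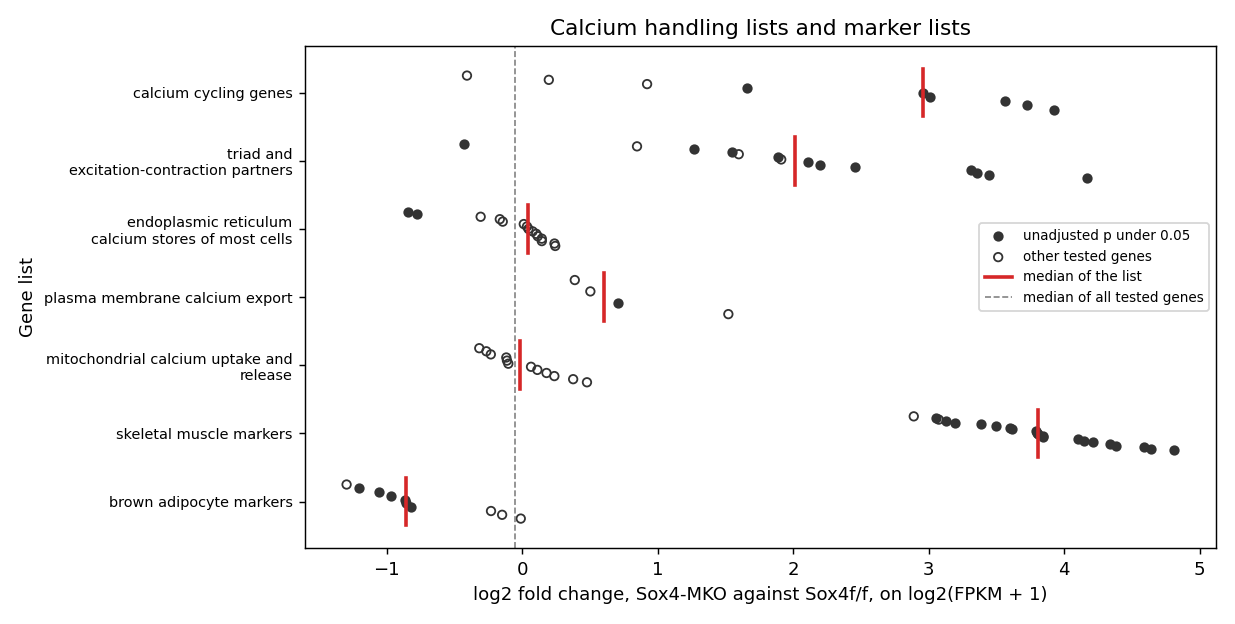
Log2 fold change on the log2(FPKM + 1) scale for the tested genes of each list, filled where the unadjusted p was under 0.05, with the list median in red and the median of all tested genes (-0.05) dashed. The calcium cycling genes and their junction partners lie to the right together with the skeletal muscle markers, and the store and mitochondrial lists lie around 0.

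Other cells that hold these transcripts were read from their markers. The cardiac list, 8 genes of which 2 were tested, summed to 3.32 and 3.52 FPKM in Sox4f/f and 70.1 and 9.74 FPKM in those labelled Sox4-MKO. Almost all of it was Actc1 in Sox4-MKO mouse 1 (65.0 FPKM). Actc1 and, in the platelet list, Ppbp passed the FPKM limit only through the libraries labelled Sox4-MKO. Myl7, Nppa and Mybpc3 were listed at 0 in all 4 libraries. The smooth muscle list summed to 40.3 to 53.0 FPKM in Sox4f/f and 61.8 to 75.0 FPKM in the others, with 1 of 6 tested genes called, Synpo2, which skeletal muscle also expresses. Its most abundant markers Acta2 (14.9 and 21.2 against 16.9 and 22.5 FPKM) and Tagln overlapped, as did Pln. Beside Atp2a3, the endothelial list summed to 153 and 186 against 117 and 157 FPKM with 1 of 6 lower, the lymphocyte list to 9.65 and 7.15 against 9.23 and 14.1 FPKM with 1 of 3 tested higher, the platelet list to 22.3 and 26.1 against 49.7 and 35.5 FPKM with 1 of 2 tested higher, and the macrophage list to 96.7 and 135 against 212 and 187 FPKM with 4 of 6 higher, or 2 without Sox4-MKO mouse 1 or without Sox4f/f mouse 1. The lymphocyte gene called was Ptprc and the platelet gene Pf4, while Cd3e and Cd3g overlapped between the genotypes. By the same rule 7.95% of all tested rows were higher and 8.28% lower. The part of these cells in the level of Atp2a3 was not tested.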

How the data were processed

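RNA was sequenced from brown fat of 4 mice, grouped by their sample titles. The authors deposited an FPKM value per gene symbol and library, without counts. The submitters' processing notes name Cufflinks 2.1.1, Cuffdiff and mm10, and the aligner and annotation are not given in the sources used here. The methods describe TRIzol and a TruSeq library, the labels a column kit and a stranded library. Coordinates come from GENCODE M21 (GRCm38) and promoters from RefSeq (GRCm38.p6), both by symbol.

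limma 3.58.1 (R 4.3.3) compared the genotypes on log2(FPKM + 1), with no other term and a trended prior, for 12877 rows whose mean was above 1 FPKM for either genotype. Tests are two-sided with Benjamini-Hochberg adjustment over these rows, and this scale understates the change of low genes. The code was tested on simulated data. Members and lists were chosen with earlier results of these data known. Besides the members, Sox4, Ucp1 and the nearest genes in pattern, the rule named the 3 most abundant genes of each list and, in pathway lists, up to 3 with the largest difference at an unadjusted p under 0.05, and for several marker lists fewer of them are printed. Synpo2, Myl7, Nppa, Mybpc3 and the muscle and micropeptide genes of the closing section were chosen after their values were seen. The prior draws on all tested rows, so a p-value does not measure the spread between these mice alone. For Atp2a1 the unadjusted p was 0.026 with moderation and 0.166 without (limma).

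Depth was estimated from genes with a single annotated transcript of 1500 nt or more, whose lowest values (300 to 364 per library, within 30%) gather at 0.0602 to 0.0819 FPKM × kb, taken as 1 fragment. Some starting values of the search ended elsewhere, at 0.149 in Sox4f/f mouse 1 (253 values), 0.04 in Sox4f/f mouse 2 (0 values) and 0.0403 in Sox4-MKO mouse 1 (3 values), and the end point with the most values was used. Fragment numbers use the longest transcript, are approximate and cover counting error only. A value of 0 can be a failed estimate and is given as listed at 0.

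Alternatives were a replicate block, each mouse left out, 3 other scalings (to one median, by quantiles, and with Ucp1 and mitochondrially encoded genes taken out of the total), FPKM limits of 0.1 and 5 and none, pseudocounts of 0.1 and 0.01, no moderation in limma, and a geometric mean of the muscle markers. Matplotlib 3.10.9 drew the plots. ChIP sequencing was not analysed here.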

Additional observations from a re-analysis of the deposited data

How the results depend on the processing

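Over 124 recalculations of the 9 tested genes, the direction never reversed, 103 kept their side of an unadjusted p of 0.05, 14 lost it (Atp2a1, Ryr1, Casq1, Casq2 and Cacna1s) and 7 gained it, all of Atp2a2. The replicate block, the FPKM limits and limma without moderation leave the log2 fold change unchanged, so the direction could not reverse there. For the 8 genes without overlap between the genotypes, leaving out a mouse or changing the pseudocount could not reverse it either. For these genes only the 3 other scalings could have done so. The 103 include every recalculation of Atp2a3 and Pln, which were never under 0.05. With all 4 mice the adjusted p of the members was between 0.138 and 0.765 over these alternatives (limma). With each mouse left out, the genes called numbered 404 to 1012 lower and 445 to 1559 higher at an unadjusted p under 0.05 and 0 to 5 after adjustment, the calcium cycling genes called higher 1 to 7, the difference in the Atp2a1 share 24.2 to 57.5 percentage points, and the median log2 ratio of the members to the muscle markers -2.15 to -1.35 around -1.75. A mouse that is alone in its genotype was then assumed to vary like the other genotype. Counts of members and of list genes called with a mouse left out are thus to be read beside these counts over all tested rows. The median log2 ratio leaves out Sln, listed at 0 in Sox4f/f mouse 1, and with all 4 mice is the value of Casq2. It describes no shared shift of the members. The difference lay between -0.30 and 0.37 for Atp2a1, Ryr1, Casq1 and Cacna1s. For Atp2a2, Atp2a3, Ryr2 and Pln it lay between -4.64 and -2.92. limma without moderation called 553 genes higher and 1 member, Sln, and 0 after adjustment. Rescaling without mitochondrially encoded genes and Ucp1 called 746 lower and 1322 higher, against 1066 and 1024. Mouse numbers pair no animals by the labels, and same-numbered mice did not deviate together (r = -0.012 over 12877 genes). With the replicate block 938 genes were lower and 970 higher, and 7 members were called higher. Depth was not varied, and in Sox4f/f mouse 1 Casq2, Casq1 and Cacna1s rest on about 48, 62 and 98 fragments.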

Other observations

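Within the libraries labelled Sox4-MKO, genes of the muscle list did not fall by one factor from mouse 1 to mouse 2. These genes were picked after their values were seen and no test was made. Myh4, the myosin of the fastest fibres, had 1165 FPKM in mouse 1 and 55.2 FPKM in mouse 2, close to the 56.5 FPKM of Sox4f/f mouse 2, and Actn3 had 286 and 18.0 FPKM. Myoglobin (Mb) had 485 and 437 FPKM and Myh2, a myosin of fast oxidative fibres, 100.5 and 74.7 FPKM, so both stayed near the same level while the marker sum differed 4.88-fold between these mice. Sln, at 13.7 and 10.6 FPKM, was closer to Mb and Myh2 in this respect than to Atp2a1, at 1561 and 233 FPKM.

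Strit1, which encodes a micropeptide that relieves the inhibition of SERCA, was listed at 0 in both Sox4f/f libraries and in Sox4-MKO mouse 2 and at 8.16 FPKM in Sox4-MKO mouse 1. Mrln, which encodes the inhibitor myoregulin, had 0.33 and 3.02 FPKM in the control mice against 2.05 and 4.67 FPKM, with overlap between the genotypes.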
